A study of Mus musculus with 15 samples.

Results

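The 10 genes described here encode feedback regulators of stress and growth signals and factors that speed the decay of mRNA: Zfp36, Btg2, Ppp1r15a, Gdf15, Dusp1, Gadd45b, Socs3, Ier2, Ier3 and Apold1. They are 10 of the 21839 genes in the deposited table, found in it by gene symbol through their Ensembl identifiers, and all 10 passed the filter on low counts that left 13887 genes for testing. They were selected on their levels in these same libraries, with the differences between the groups in view. Their levels and differences are therefore a description and carry no test of their own. The RNA came from lymphatic endothelial cells of C57bl/6 mice aged 10 weeks that had received a transplanted melanoma line which induces lymphatic vessel growth. The sorted cells lacked CD45, carried by all leukocytes, and bore CD31 and gp38, the products of Pecam1 and Pdpn. They gave 5 libraries from the melanoma itself (Tumor), 5 from the lymph node that drains it (TdLN) and 5 from a lymph node that does not (NdLN). All 3 groups come from mice with a tumor, and no library analysed here is from a mouse without one. The labels do not say whether libraries came from single or pooled mice, so the spread between libraries may be partly technical.

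Most of these genes are known as immediate early genes, whose short-lived transcripts are made within minutes of a growth factor, cytokine, flow or mechanical stimulus, tissue digestion included. Their products then act as brakes: Zfp36 and Btg2 direct the CCR4-NOT deadenylase to transcripts, Dusp1 removes phosphate from MAP kinases, Socs3 blocks cytokine receptors that signal through JAK kinases and STAT3, and Ppp1r15a restores translation after the integrated stress response. In endothelium such genes follow changes in flow and inflammatory signals. The elements that drive them are well described as promoter sites for CREB, AP-1 and serum response factor, and AU-rich elements in the 3′ UTR mark their transcripts for rapid decay.

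Promoter windows of 300 bases, 250 before and 50 after the annotated start of transcription, were taken from RefSeq (build GRCm38.p6) for 9 of the 10 genes, with a second window for Gdf15. The palindromic cAMP response element TGACGTCA, the site of CREB and ATF proteins, was in the windows of Btg2, Ppp1r15a and Dusp1, against 1.79% of all 32851 windows. Those windows lie at chr1:134079106-134079405, chr7:45526219-45526518 and chr17:26508423-26508722, all on the minus strand, and are printed 5′ to 3′ on that strand because they hold the element. The window of Apold1, at chr6:134981751-134982050 on the plus strand, is shown for its single TGACG on the opposite strand, and that of Zfp36, at chr7:28379179-28379478 on the minus strand, for its CArG box, the site of serum response factor. Capitals mark TGACG on either strand (CGTCA where it is on the other strand), which the longer element contains, and the CArG box.
Btg2: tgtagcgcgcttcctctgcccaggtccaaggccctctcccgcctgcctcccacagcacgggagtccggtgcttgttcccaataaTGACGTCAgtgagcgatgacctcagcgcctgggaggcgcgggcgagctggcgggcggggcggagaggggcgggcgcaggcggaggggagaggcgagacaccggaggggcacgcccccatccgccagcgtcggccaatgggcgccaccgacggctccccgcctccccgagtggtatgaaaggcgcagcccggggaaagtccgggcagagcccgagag
Ppp1r15a: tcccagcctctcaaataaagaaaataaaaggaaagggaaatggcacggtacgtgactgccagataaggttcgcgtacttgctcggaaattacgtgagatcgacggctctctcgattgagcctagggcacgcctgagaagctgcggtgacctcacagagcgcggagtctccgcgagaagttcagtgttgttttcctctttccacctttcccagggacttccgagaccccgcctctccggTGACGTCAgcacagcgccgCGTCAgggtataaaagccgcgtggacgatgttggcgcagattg
Dusp1: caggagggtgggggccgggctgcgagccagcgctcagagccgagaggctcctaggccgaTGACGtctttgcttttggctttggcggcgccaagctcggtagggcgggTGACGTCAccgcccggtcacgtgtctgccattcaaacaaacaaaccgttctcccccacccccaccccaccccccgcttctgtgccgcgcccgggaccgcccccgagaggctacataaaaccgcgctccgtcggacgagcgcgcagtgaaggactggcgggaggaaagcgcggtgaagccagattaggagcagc
Apold1: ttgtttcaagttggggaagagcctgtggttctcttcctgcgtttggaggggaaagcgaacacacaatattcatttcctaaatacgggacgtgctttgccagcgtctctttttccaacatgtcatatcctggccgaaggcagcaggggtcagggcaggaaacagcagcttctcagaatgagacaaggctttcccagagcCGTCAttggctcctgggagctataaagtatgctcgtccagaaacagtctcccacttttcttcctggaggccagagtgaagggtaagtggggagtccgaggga
Zfp36: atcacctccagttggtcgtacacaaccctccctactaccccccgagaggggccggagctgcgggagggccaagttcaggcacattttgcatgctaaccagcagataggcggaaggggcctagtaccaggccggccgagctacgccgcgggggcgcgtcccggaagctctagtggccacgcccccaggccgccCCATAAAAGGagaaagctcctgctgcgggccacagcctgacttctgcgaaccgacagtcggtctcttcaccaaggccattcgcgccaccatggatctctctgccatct

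Counted from the annotated start of transcription, the element began at -166 in Btg2, at -143 in Dusp1 and at -12 in Ppp1r15a. The 5-base TGACG was in the windows of 4 of the 9 genes, against 20.8% of all windows, and the CArG box was in 1, against 1.63%. The AP-1 site TGANTCA was in none of the 9, against 7.81% of all windows, and neither was TGATGNAA, a core of the site for ATF4 and C/EBP proteins, against 3.97%. The TATA box letters TATAAA were in the windows of Apold1, Ppp1r15a and Gadd45b, against 13.6%. They began at -32 in Apold1 and -46 in Gadd45b, but at 16 in Ppp1r15a, after its annotated start. All positions rest on the annotated start, which was not checked. The STAT site TTCNNNGAA was in those of Apold1, Zfp36 and Socs3, against 8.3%, and the NF-kB site, searched by its consensus, was in that of Ier3, against 4.51%. Both strands were searched. A match describes the letters of a window and is not evidence of binding, and the absence of a match covers only these 300 bases.

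**Figure D1:**
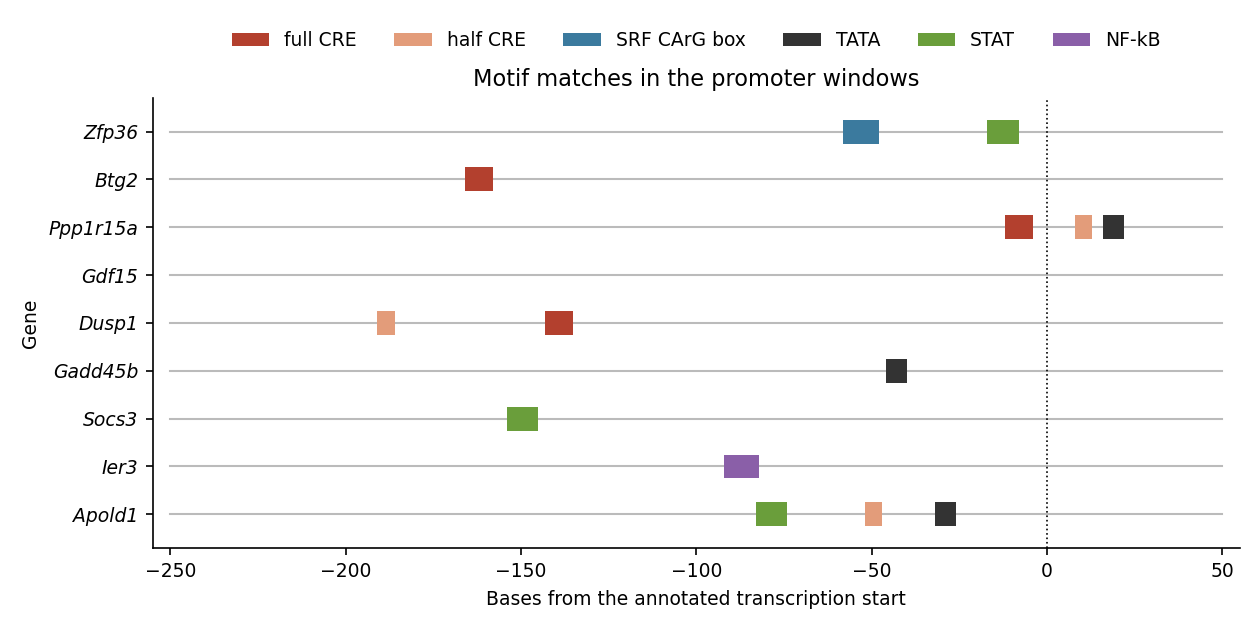
Motif matches in the promoter windows of 9 of the 10 genes (rows), by distance in bases from the annotated transcription start (dotted line), with 1 colour for each motif; Gdf15 has 2 windows, neither with a match. The cAMP response element appears in Btg2, Ppp1r15a and Dusp1, and begins at -166, -12 and -143.

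The 3′ UTRs were searched for AU-rich elements, the kind of site that Zfp36 binds. The motif was the nonamer TTATTTA followed by a pair of bases that are each A or T. It was found in the annotated 3′ UTRs of 5 of the 10 genes, against 16% of the 13747 tested protein-coding genes with a transcript model. Zfp36 and Gdf15 had 1 match each, Dusp1 2, and Ppp1r15a and Apold1 4 each, overlapping matches counted. The first match of each is shown in a window of 30 bases on the sense strand (build GRCm38), with the nonamers in capitals, because such sites are bound by a product of the list itself. The windows lie at chr7:28376950-28376979, chr7:45522956-45522985, chr8:70629413-70629442 and chr17:26506158-26506187 on the minus strand and chr6:134985218-134985247 on the plus strand.
Zfp36: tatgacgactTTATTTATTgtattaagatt
Ppp1r15a: tagtttcctaTTATTTATTTATTTATTtat
Gdf15: gattgtgtatTTATTTAAAactctgctaat
Dusp1: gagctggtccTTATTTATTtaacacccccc
Apold1: caccatatctTTATTTATTTAAAattagtt

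In Ppp1r15a the matches overlap in a 3′ UTR of 74 bases. The shorter core ATTTA occurred 13 times in Apold1, 3 to 5 times in Zfp36, Btg2, Ppp1r15a, Gdf15, Dusp1, Socs3 and Ier3, and not at all in Gadd45b and Ier2. At least 1 ATTTA was thus present in 8 of the 10 genes, against 66.1% of all tested protein-coding genes. The genes are short: the transcripts have a median of 2 exons, against 9 for all tested protein-coding genes, and 8 of the 10 have 1 or 2 exons, against 7.59%. These features were not used to choose the genes. Most of the 10 are immediate early genes, however, a class known for AU-rich elements as said above. The counts therefore describe genes of that kind and are no independent finding.

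Total counts were 23830337 to 37437282 per library. The labelled cell type was read from marker genes. Pdpn was at 116 ± 46.4, 120 ± 15.4 and 124 ± 20.7 CPM (read counts scaled to library size with TMM factors) in Tumor, TdLN and NdLN libraries (mean ± SD, n = 5 each). By contrast Pecam1 was at 276 ± 86.7, 1179 ± 87.1 and 1596 ± 84.7 CPM. The lymphatic transcription factor Prox1 was at 105 ± 22.7, 539 ± 74.9 and 766 ± 52.9 CPM. Of 7 lymphatic markers, Prox1 and Mmrn1 fell in Tumor against NdLN libraries, Reln and Ccl21a rose, and 3 were not called. The 7 together took 0.335% to 0.473% of all counts in Tumor, 0.504% to 0.693% in TdLN and 0.574% to 0.748% in NdLN libraries. All 6 pan-endothelial markers fell in Tumor against NdLN libraries, and their summed share of all counts was 0.133% to 0.212% in Tumor, 0.372% to 0.45% in TdLN and 0.427% to 0.496% in NdLN libraries. The 8 pigment cell markers made up 2.65% to 4.12% of counts in Tumor libraries, 0.00117% to 0.00325% in TdLN and 0.00169% to 0.00359% in NdLN libraries. In Tumor, TdLN and NdLN libraries the 8 fibroblast markers summed to 0.129% to 1.05%, 0.0114% to 0.0363% and 0.023% to 0.0528%. The 8 macrophage markers reached at most 0.024%, 0.00459% and 0.00285%, and the 8 blood endothelial markers summed to 0.0469% to 0.116%, 0.0594% to 0.508% and 0.129% to 0.495%, in the same order. Plvap was by far the most abundant of the 8 in the lymph nodes and dominated their sum. It ranged over 314 to 5097 CPM in TdLN and 923 to 5003 CPM in NdLN libraries. In Tumor against NdLN, 8 of 8 pigment cell, 8 of 8 macrophage and 5 of 8 fibroblast markers rose, 1 fibroblast marker fell, and 5 of 9 lymphocyte markers fell. Of the 8 blood endothelial markers, 7 fell and 1 rose in that comparison. In TdLN against NdLN, 3 of 8 blood endothelial markers fell and none of the 6 pan-endothelial markers was called. No marker was at 0 throughout a group. Within a sorted mixture, fewer cells of a type and less RNA per cell cannot be told apart. The part of these other transcripts in the Tumor values below was not tested. The differences are therefore also given, for the 10 genes by gene and for related genes as counts, on a second scale, the summed counts of the 6 pan-endothelial genes. That scale moves the median of all genes by 1.57 in Tumor against NdLN, 1.33 in Tumor against TdLN and 0.244 in TdLN against NdLN (log2). The 6 genes did not fall equally. Their log2 fold changes ran from -2.53 (Pecam1) to -0.73 (Egfl7) in Tumor against NdLN. In Tumor against TdLN they ran from -2.10 to -0.74 for the same genes. Values on that scale, their sign included, thus depend on the genes chosen for it.

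Some libraries stood apart. Among 5391 genes whose log2 CPM averaged 5 or more, TdLN 3 had 374 that were more than 1 log2 unit below every other TdLN library, Dusp1 and Apold1 among them. Tumor 1 had 287 such genes and Tumor 5 had 76, with none of the 10 genes among either. NdLN 2 had 39 genes that far above every other NdLN library, Gdf15 among them, and TdLN 4 had 36 that far above every other TdLN library, with none of the 10 genes among them.

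All 10 genes were lowest in Tumor libraries and highest in NdLN libraries by their group means, with TdLN between them. Together they took 0.2% ± 0.0121 of all counts in Tumor libraries, 0.731% ± 0.119 in TdLN libraries and 1.39% ± 0.16 in NdLN libraries (SD, n = 5 each). Set against the summed counts of the pan-endothelial genes, the 10 genes were at 1.16 ± 0.22 counts per endothelial count in Tumor, 1.83 ± 0.431 in TdLN and 3.02 ± 0.291 in NdLN libraries. The median log2 fold change over the 10 was -2.83 in Tumor against NdLN, where that of all tested genes was 0.039, -2.06 in Tumor against TdLN (all genes 0.037) and -0.91 in TdLN against NdLN (all genes -0.006). The comparisons share their libraries and are not independent of each other.

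**Figure D2:**
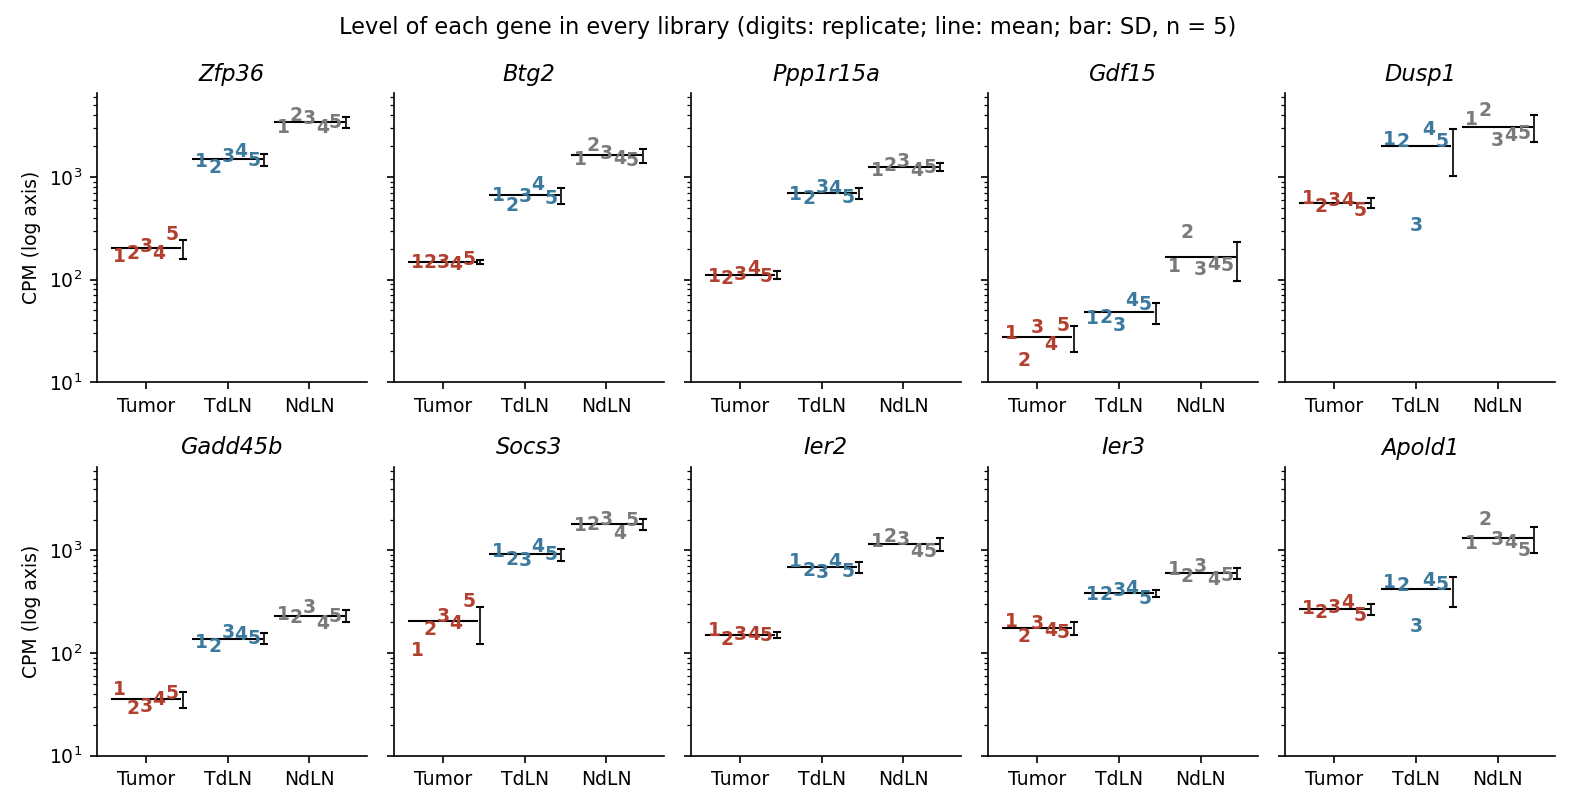
Level of each gene in CPM (log axis) in every library of the Tumor, TdLN and NdLN groups; digits are replicate numbers, lines are group means and bars are SD (n = 5). Tumor libraries lie below NdLN libraries in all 10 panels, and TdLN 3 lies apart for Dusp1 (336 CPM) and Apold1 (180 CPM).

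The list holds 2 factors of mRNA decay, Zfp36 and Btg2. Zfp36 (chr7:28376784-28380253, minus strand), whose product tristetraprolin binds AU-rich elements and recruits the deadenylase, was at 166, 179, 209, 180 and 274 CPM in Tumor libraries 1 to 5, 1420, 1247, 1566, 1779 and 1432 CPM in TdLN libraries 1 to 5, and 3015, 3974, 3689, 3018 and 3391 CPM in NdLN libraries 1 to 5. The 3 groups did not overlap, and every Tumor library was under every TdLN library, which in turn was under every NdLN library. The log2 fold change was -4.08 ± 0.16 (SE) in Tumor against NdLN, -2.88 ± 0.15 in Tumor against TdLN and -1.20 ± 0.14 in TdLN against NdLN. Tumor 5 was the highest Tumor library for this gene. Zfp36 overlaps Gm44710 on the opposite strand, a gene that is not among those counted. As the library kit does not mark strand, reads of the 2 genes in the overlap cannot be told apart. Btg2 (chr1:134075170-134079120, minus strand), an antiproliferative protein that activates the deadenylases Cnot7 and Cnot8, was at 147, 145, 147, 141 and 158 CPM in Tumor libraries 1 to 5, 663, 529, 640, 850 and 622 CPM in TdLN libraries 1 to 5, and 1466, 2028, 1680, 1502 and 1435 CPM in NdLN libraries 1 to 5. Here too the 3 groups were separate, and the Tumor libraries lay within 141 to 158 CPM. Its log2 fold changes were -3.46 ± 0.14, -2.16 ± 0.13 and -1.30 ± 0.13 in the same order of comparisons.

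The phosphatase genes differed in how evenly their libraries behaved. Ppp1r15a (chr7:45522916-45526268, minus strand) encodes GADD34, the subunit that directs protein phosphatase 1 to the translation factor eIF2α, and was at 106, 102, 111, 129 and 106 CPM in Tumor libraries 1 to 5, 670, 622, 786, 777 and 626 CPM in TdLN libraries 1 to 5, and 1154, 1287, 1409, 1163 and 1241 CPM in NdLN libraries 1 to 5. The groups did not overlap, and the log2 fold changes were -3.49 ± 0.11 in Tumor against NdLN, -2.65 ± 0.11 in Tumor against TdLN and -0.85 ± 0.10 in TdLN against NdLN. Ppp1r15a overlaps Tulp2 on the opposite strand, and as the library kit does not mark strand, reads in the overlap cannot be told apart. Dusp1 (chr17:26505590-26562128, minus strand), a nuclear phosphatase of p38, JNK and ERK kinases, was at 623, 520, 590, 594 and 472 CPM in Tumor libraries 1 to 5, 2290, 2199, 336, 2884 and 2206 CPM in TdLN libraries 1 to 5, and 3613, 4406, 2264, 2506 and 2678 CPM in NdLN libraries 1 to 5. TdLN 3, at 336 CPM, was below every Tumor library, while the other TdLN libraries lay at 2199 to 2884 CPM and reached into the NdLN range. The log2 fold change was -2.47 ± 0.40 in Tumor against NdLN, -1.82 ± 0.39 in Tumor against TdLN and -0.64 ± 0.38 in TdLN against NdLN. Without TdLN 3 it was -2.10 ± 0.18 in Tumor against TdLN and -0.37 ± 0.18 in TdLN against NdLN. The annotated span of Dusp1, far longer than its transcript of 1990 bases, overlaps Ergic1 and Gm8225 on the other strand, with the same limit.

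Inhibitors of kinase and cytokine signalling followed the same order of groups. Gadd45b (chr10:80930073-80932204, plus strand), a stress sensor that binds the JNK kinase MKK7, was at 43.8, 28.8, 30.4, 35 and 39.9 CPM in Tumor libraries 1 to 5, 127, 117, 158, 151 and 139 CPM in TdLN libraries 1 to 5, and 240, 220, 276, 193 and 229 CPM in NdLN libraries 1 to 5. No group overlapped another, with log2 fold changes of -2.70 ± 0.14 in Tumor against NdLN, -1.96 ± 0.14 in Tumor against TdLN and -0.74 ± 0.13 in TdLN against NdLN. Socs3 (chr11:117966079-117970047, minus strand), which blocks gp130 and the JAK kinases bound to it, was at 105, 170, 229, 192 and 320 CPM in Tumor libraries 1 to 5, 970, 809, 799, 1089 and 920 CPM in TdLN libraries 1 to 5, and 1756, 1789, 1980, 1457 and 1978 CPM in NdLN libraries 1 to 5. The Tumor libraries spread over 105 to 320 CPM, the widest of the genes relative to its mean in that group with a coefficient of variation of 39%, but stayed under every TdLN library. Its log2 fold changes were -3.14 ± 0.23, -2.18 ± 0.22 and -0.97 ± 0.22 in the same order. The call of Socs3 in TdLN against NdLN held in 4 of the 10 fits that leave out 1 of those libraries, with log2 fold changes of -1.04 to -0.92, and was lost without TdLN 1, 2 or 3 or NdLN 2, 3 or 5.

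The immediate early response genes Ier2 and Ier3 differed in size. Ier2 (chr8:84661331-84662852, minus strand), a small nuclear protein made early after serum stimulation, was at 166, 136, 153, 150 and 148 CPM in Tumor libraries 1 to 5, 776, 642, 615, 787 and 628 CPM in TdLN libraries 1 to 5, and 1210, 1353, 1285, 985 and 981 CPM in NdLN libraries 1 to 5. Its groups did not overlap, and the log2 fold changes were -2.95 ± 0.12 in Tumor against NdLN, -2.20 ± 0.12 in Tumor against TdLN and -0.75 ± 0.11 in TdLN against NdLN. Ier3 (chr17:35821684-35822923, plus strand), a regulator of cell survival and ERK signalling, was at 204, 144, 195, 166 and 159 CPM in Tumor libraries 1 to 5, 371, 372, 407, 424 and 340 CPM in TdLN libraries 1 to 5, and 650, 559, 705, 517 and 565 CPM in NdLN libraries 1 to 5. Its groups were also separate but closer, with log2 fold changes of -1.79 ± 0.12, -1.14 ± 0.12 and -0.65 ± 0.12, of which the first was the smallest of the 10 genes.

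With TMM scaling, Gdf15 and Apold1 had most of their difference between the lymph nodes. Gdf15 (chr8:70629393-70632456, minus strand), a secreted TGF-beta family hormone made under p53 and the integrated stress response, was at 29.8, 16.4, 33.8, 23.2 and 35.3 CPM in Tumor libraries 1 to 5, 41.8, 42.2, 35.9, 62.4 and 57 CPM in TdLN libraries 1 to 5, and 133, 286, 125, 140 and 137 CPM in NdLN libraries 1 to 5. The groups did not overlap, but the highest Tumor library, at 35.3 CPM, was next to the lowest TdLN library, at 35.9 CPM. NdLN 2, at 286 CPM, was high among NdLN libraries, of which the others were at 125 to 140 CPM. The log2 fold change was -2.57 ± 0.27 in Tumor against NdLN, -0.79 ± 0.26 in Tumor against TdLN and -1.78 ± 0.26 in TdLN against NdLN, and without NdLN 2 it was -2.28 and -1.48 in the comparisons that use NdLN. Apold1 (chr6:134981718-134986836, plus strand), an early response gene of endothelial cells, was at 270, 246, 275, 312 and 231 CPM in Tumor libraries 1 to 5, 482, 457, 180, 511 and 467 CPM in TdLN libraries 1 to 5, and 1175, 1981, 1266, 1205 and 1009 CPM in NdLN libraries 1 to 5. TdLN 3, at 180 CPM, lay under every Tumor library, and the other TdLN libraries, at 457 to 511 CPM, lay above them. The log2 fold change was -2.31 ± 0.25 in Tumor against NdLN, -0.65 ± 0.24 in Tumor against TdLN and -1.66 ± 0.24 in TdLN against NdLN. Without TdLN 3 it was -0.85 ± 0.16 in Tumor against TdLN and -1.47 ± 0.17 in TdLN against NdLN, and without NdLN 2 it was -1.47 in TdLN against NdLN and -2.13 in Tumor against NdLN. The call of Apold1 in Tumor against TdLN held in 6 of the 10 fits that leave out 1 of those libraries, was lost without Tumor 5 or TdLN 1, 2 or 4, and was lost with the replicate number as a block.

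On the log2 scale, the difference between TdLN and NdLN was 71.8% as large as that between Tumor and NdLN for Apold1 and 69.3% for Gdf15. For the other 8 genes it was 24.2% (Ppp1r15a) to 37.5% (Btg2). With TdLN 3 left out of the TdLN difference, the figures were 63.5% for Apold1, 65.8% for Gdf15 and 15% for Dusp1. These shares compare differences that use the same NdLN libraries, and were not tested against each other. They also depend on the scale. Scaled to the pan-endothelial genes, Btg2 had -1.04 in TdLN against NdLN and -0.84 in Tumor against TdLN, and Ier3 had -0.41 and 0.20. Gdf15 and Apold1 kept the larger difference between the nodes on that scale. Zfp36, Ppp1r15a, Dusp1, Gadd45b, Socs3 and Ier2 kept the larger difference in Tumor against TdLN.

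**Figure D3:**
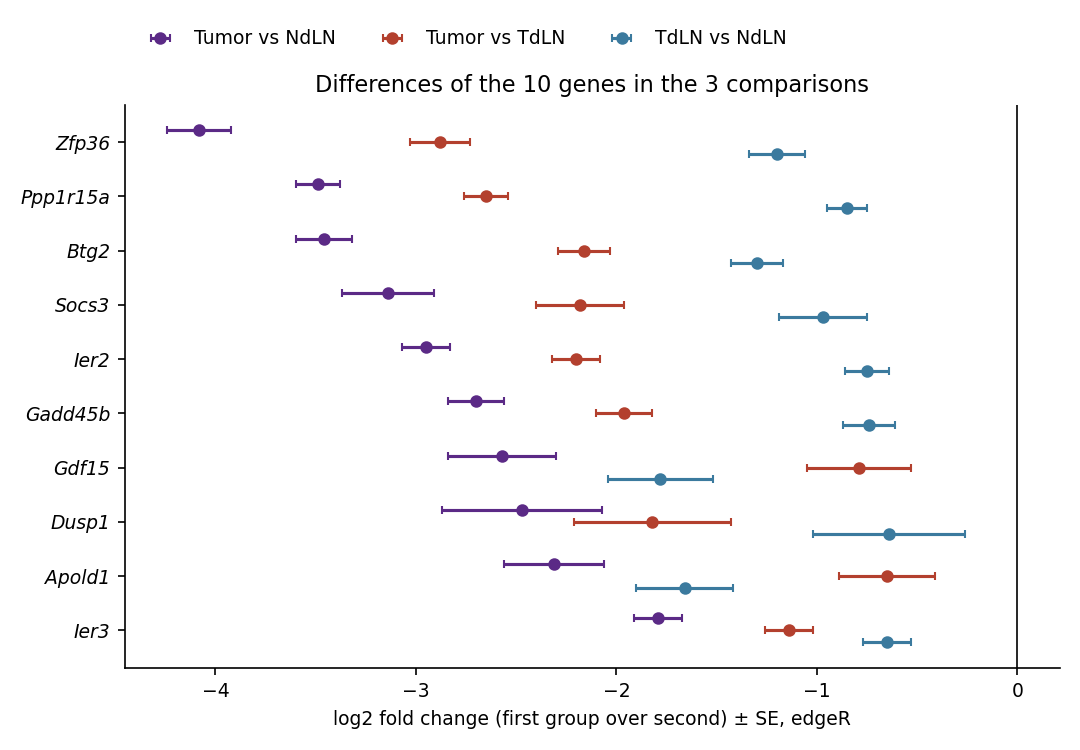
Log2 fold change ± SE of the 10 genes in Tumor against NdLN (purple), Tumor against TdLN (red) and TdLN against NdLN (blue), ordered by the first. For Gdf15 and Apold1 the blue point lies further from 0 than the red one, at -1.78 and -1.66 against -0.79 and -0.65; for the other 8 genes the red point lies further from 0.

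At a Benjamini-Hochberg adjusted p under 0.05 in edgeR's quasi-likelihood fit over all genes, 10 of the 10 genes were called lower in Tumor than in NdLN libraries, where 32.5% of all tested genes were called lower and 34.0% higher. In Tumor against TdLN, 10 of 10 were called lower, of which Apold1 depends on single libraries, against 30.1% of all genes, with 31.9% called higher. Between the nodes, in TdLN against NdLN, 9 of 10 were called lower, all but Dusp1, against 1.64% of all genes, with 1.84% called higher. Every Tumor library was below every NdLN library in 10 of 10 genes, against 27.0% of all genes, and below every TdLN library in 8 of 10, against 22.5%. Every TdLN library was below every NdLN library in 9 of 10, against 4.95%. As the genes were chosen with these values known, nothing is read from these counts.

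Scaled to the pan-endothelial genes, 9 of the 10 genes were called lower in Tumor than in NdLN libraries, with log2 fold changes of -2.50 ± 0.19 for Zfp36, -1.93 ± 0.15 for Ppp1r15a and -1.87 ± 0.18 for Btg2 at 1 end and -0.21 ± 0.18 for Ier3, the gene not called, at the other. In Tumor against TdLN on that scale, Zfp36 (-1.55 ± 0.19), Ppp1r15a (-1.33 ± 0.14), Btg2, Socs3, Ier2 and Gadd45b were called lower. Dusp1 had -0.52 ± 0.39 there without a call, and 3 genes changed sign. These were Apold1 at 0.65 ± 0.25, called higher, Gdf15 at 0.55 ± 0.28 and Ier3 at 0.20 ± 0.18, both without a call. Of the 10 genes, on that scale in TdLN against NdLN, 5 were called lower, namely Gdf15, Apold1, Btg2, Zfp36 and Ppp1r15a. The scale sets the median of all genes at 1.61, 1.36 and 0.236 in the 3 comparisons, and that of the 10 genes at -1.23, -0.72 and -0.66. Most genes called on that scale were higher, with the shares given below under the dependence on processing. Those are shares of called genes. The share of all tested genes called lower on that scale is not given here, so the counts of the 10 genes lack that background. As the 10 genes were chosen with their values known, nothing is read from these counts either.

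Between genes, levels were compared per kilobase of annotated exon. In NdLN libraries Zfp36 (985 ± 121 CPM per kilobase) and Dusp1 (934 ± 270) came first and were not apart beyond their SD. They were followed by Ier2 (764 ± 113), Socs3 (620 ± 74.1), Btg2 (591 ± 89.6) and Ier3 (530 ± 67.6), of which no neighbours were apart by more than the sum of their SDs. Ppp1r15a (426 ± 35.4) and Apold1 (372 ± 106) came next, and Gadd45b (146 ± 19.1) and Gdf15 (88.7 ± 36.9) were the lowest. The order was different in Tumor libraries. Dusp1 (169 ± 18.6) and Ier3 (153 ± 22.3) were highest there and within their SD of each other, and Zfp36 (58.1 ± 12.5) came sixth, after Ier2 (98.8 ± 7.1), Apold1 (74.8 ± 8.7) and Socs3 (70.2 ± 27.4). Btg2 (53.8 ± 2.27), Ppp1r15a (37.8 ± 3.68), Gadd45b (22.4 ± 3.97) and Gdf15 (15 ± 4.24) were again in the lower part. In TdLN libraries Dusp1 (599 ± 291), Ier2 (453 ± 55.5) and Zfp36 (429 ± 57.1) led. The annotated exons of Zfp36 together cover its whole span of 3470 bases, which is longer than its main transcript of 2790 bases and lowers its value on this scale. The same holds for Dusp1, with 3311 bases of exon and a transcript of 1990 bases, and to a smaller extent for Gdf15, Gadd45b, Socs3 and Ppp1r15a. The order of genes, that of Zfp36 and Dusp1 included, thus depends on the length used.

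Within groups, the genes did not share 1 order of libraries. In TdLN, library 4 was the highest for 8 of the 10 genes, all but Ppp1r15a and Gadd45b, for which TdLN 3 was highest. TdLN 3 was in turn the lowest for 5 genes, Gdf15, Dusp1, Socs3, Ier2 and Apold1. In NdLN, library 2 was the highest for 6 genes, Zfp36, Btg2, Gdf15, Dusp1, Ier2 and Apold1, and library 3 for the other 4. In Tumor, library 5 was highest for Zfp36, Btg2, Gdf15 and Socs3 and lowest for Dusp1 and Apold1, whereas library 1 was highest for Dusp1, Gadd45b, Ier2 and Ier3 and lowest for Zfp36 and Socs3. Whether a library number marks the same mouse in several tissues is unknown from the labels, and numbers give the libraries of a group no order.

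**Figure D4:**
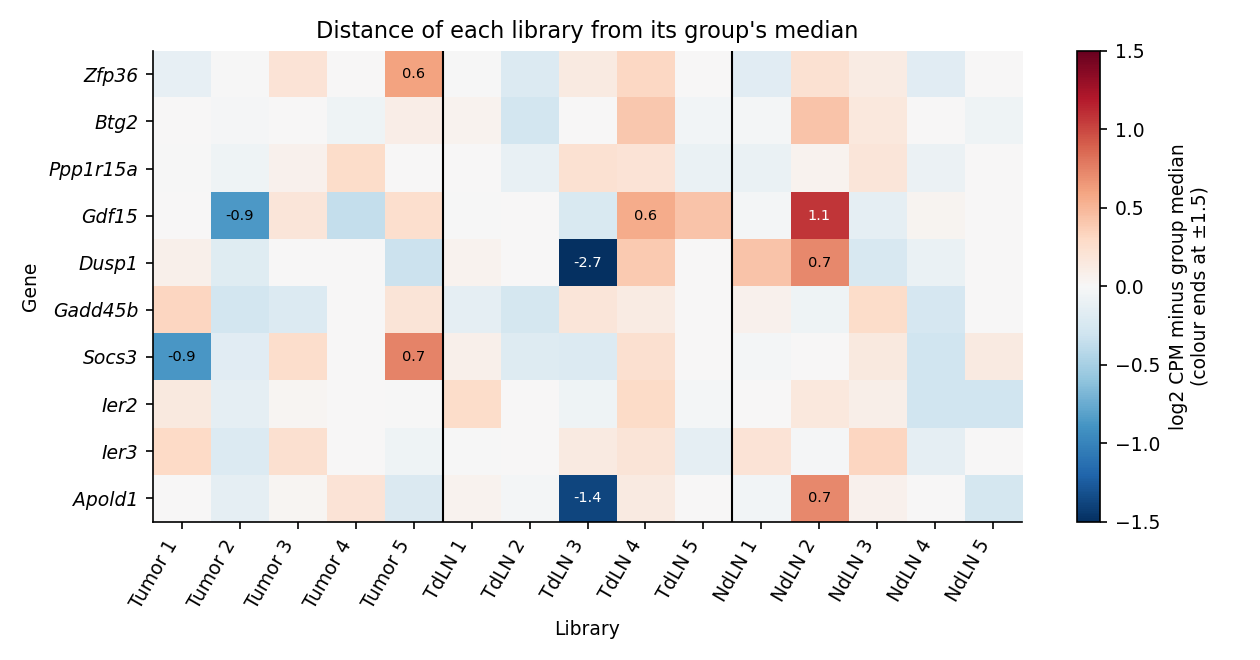
Log2 CPM of each gene (rows) in each library (columns) minus the median of the library's group, with values of at least 0.5 in size printed to 1 decimal. Most cells are near 0; TdLN 3 is low for Dusp1 and Apold1, and NdLN 2 is high for Gdf15, Dusp1 and Apold1.

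The 8 other genes most like the 10 were found by the root mean square difference, over the 15 libraries, between a gene's log2 CPM, centred on its own mean, and the median of the 10 genes treated the same way. Candidates were the 5835 genes outside the 10 for which edgeR's own average log2 CPM, not the mean of the library values, was 5 or more. The median of this difference among them was 1.286. Ccn1, a secreted matricellular protein, was nearest at 0.144, with 677 ± 71.4 CPM in Tumor, 2760 ± 248 CPM in TdLN and 5351 ± 762 CPM in NdLN libraries. The AP-1 subunit gene Junb followed at 0.211 (405 ± 25.6, 2164 ± 248 and 3863 ± 507 CPM in Tumor, TdLN and NdLN), then the kinase gene Sgk1 at 0.212, Rassf9 at 0.215, the acetylcholine receptor subunit gene Chrnb1 at 0.217, the scavenging chemokine receptor gene Ackr3 at 0.227, the small GTPase gene Gem at 0.235 and the NF-kB inhibitor gene Nfkbia at 0.245. Of the 10 genes themselves, Ier2 (0.137) and Gadd45b (0.191) lay nearest to their own median, and Apold1 (0.673) and Dusp1 (0.687) furthest from it.

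Genes of the same pathways outside the list were read from 7 lists of 115 genes, of which 112 were tested (Eif2ak1 was not in the table, and Btg3 and Il10 did not pass the filter). In Tumor against NdLN libraries, 21 rose and 52 fell, with a median log2 fold change of -0.44 where that of all genes was 0.039. Among all tested genes 34.0% were called higher and 32.5% lower in that comparison, and several of the lists below have shares near these. Scaled to the pan-endothelial genes, 69 were higher and 19 lower, with a median of 1.12 where that of all genes was 1.61. As that scale moves the median of all genes, counts on it, here and in the lists below, are not read as a result about the related genes. In Tumor against TdLN libraries, 19 rose and 46 fell (median -0.37, all genes 0.037), where 31.9% of all genes were called higher and 30.1% lower. On the endothelial scale 62 were higher and 13 lower in that comparison (median 0.93, all genes 1.36). In TdLN against NdLN libraries, 3 rose and 12 fell (median -0.15, all genes -0.006; 1.84% of all genes higher and 1.64% lower). Without TdLN 3, 11 of these 15 were kept, without NdLN 2 only 5, and on the endothelial scale 5. Adjusted p-values below are Benjamini-Hochberg values of edgeR's quasi-likelihood test over all tested genes, and CPM values are means ± SD over 5 libraries.

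Of 23 mRNA decay factors, 4 rose and 9 fell in Tumor against NdLN libraries (median -0.12); on the endothelial scale 15 were higher and 2 lower. Zfp36l1, a paralog of Zfp36 that binds the same AU-rich elements, was at 78.8 ± 15.7 CPM in Tumor, 162 ± 12.3 in TdLN and 241 ± 37.5 in NdLN libraries. It fell by 1.61 in Tumor against NdLN (log2, SE 0.14, adjusted p = 9.1e-08) and by 1.04 in Tumor against TdLN (adjusted p = 9.77e-06), and was the only decay factor called in TdLN against NdLN, where it fell by 0.57 (SE 0.14, adjusted p = 0.0328; 0.0518 without TdLN 3, 0.0542 without NdLN 2 and 0.264 on the endothelial scale). Zc3h12a, the RNase regnase-1, fell by 3.42 in Tumor against NdLN (adjusted p = 7.19e-07), with 3.04 ± 1.47 CPM in Tumor and 32.8 ± 7.83 CPM in NdLN libraries. Btg1, a paralog of Btg2, was at 65.9 ± 14.2 CPM in Tumor, 218 ± 86.8 in TdLN and 392 ± 96.7 in NdLN libraries and fell by 2.57 in Tumor against NdLN (adjusted p = 3.12e-06). Tob2, an adaptor of the same family, fell by 1.52 there (adjusted p = 5.85e-06). The deadenylase subunit gene Cnot7 rose by 0.50 (adjusted p = 0.000629) and was at 78.1 ± 10.6 CPM in Tumor and 55.3 ± 5.19 CPM in NdLN libraries. Cnot6, Hnrnpd and Elavl1 also rose. In Tumor against TdLN, 1 of the 23 rose, Cnot7 at 0.55 (adjusted p = 0.000314), and 7 fell (median -0.24; on the endothelial scale 15 were higher and 1 lower).

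Of 15 dual specificity phosphatases and other MAP kinase feedback genes, 4 rose and 5 fell in Tumor against NdLN libraries (median -0.01; on the endothelial scale 11 were higher and none lower). Dusp4, a paralog of Dusp1 that also acts in the nucleus, went the other way from it: 67.3 ± 14.4 CPM in Tumor, 2.62 ± 1.15 in TdLN and 6.62 ± 1.81 in NdLN libraries. It rose by 3.35 in Tumor against NdLN (SE 0.29, adjusted p = 1.14e-07) and by 4.69 in Tumor against TdLN (SE 0.31, adjusted p = 7.14e-09), and fell by 1.34 in TdLN against NdLN (SE 0.28, adjusted p = 0.0169; 0.039 without TdLN 3, 0.0221 without NdLN 2 and 0.0563 on the endothelial scale). Its rise in Tumor libraries went with that of the pigment cell, macrophage and most fibroblast markers given above, whose part in it was not tested. In TdLN against NdLN no pigment cell marker was called. Spred1, an inhibitor of Ras signalling, rose by 2.95 in Tumor against NdLN (adjusted p = 1.4e-05), and Dusp14 rose by 1.92 (adjusted p = 0.000166). Errfi1, an inhibitor of the EGF receptor, was at 97.8 ± 10.3 CPM in Tumor, 207 ± 59.1 in TdLN and 366 ± 53.8 in NdLN libraries and fell by 1.91 in Tumor against NdLN (adjusted p = 5.08e-07). In Tumor against TdLN, 4 rose and 4 fell (median -0.09; on the endothelial scale 10 were higher and none lower). Those that fell in TdLN against NdLN were 3, Dusp4, Errfi1 by 0.83 (adjusted p = 0.0253) and Spry1 by 1.04 (adjusted p = 0.0495), and on the endothelial scale none of the 3 was called. The adjusted p of Errfi1 was 0.0124 without TdLN 3 and 0.0668 without NdLN 2, and that of Spry1 was 0.111 and 0.129.

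Genes of the SOCS family and of gp130 and STAT3 signalling were lower in Tumor libraries: 10 of 15 fell against NdLN (median -0.98) and 10 of 15 against TdLN (median -1.08), while on the endothelial scale 6 were lower and 6 higher in each. The gp130 chain gene Il6st, the receptor that Socs3 blocks, was at 118 ± 34.8 CPM in Tumor, 1442 ± 246 in TdLN and 2061 ± 218 in NdLN libraries and fell by 4.12 in Tumor against NdLN (SE 0.21, adjusted p = 3.28e-10). The partner receptor gene Lifr was at 23.8 ± 2.62 CPM in Tumor, 509 ± 35.1 in TdLN and 434 ± 108 in NdLN libraries and fell by 4.42 in Tumor against TdLN (adjusted p = 2.37e-11). Jak1, the kinase bound to these receptors, was at 273 ± 45.8, 2417 ± 175 and 2111 ± 447 CPM in Tumor, TdLN and NdLN libraries and fell by 3.15 in Tumor against TdLN (adjusted p = 3.82e-10). Socs2, at 15.7 ± 0.569, 80.4 ± 8.05 and 68.2 ± 3.97 CPM, fell by 2.12 in Tumor against NdLN (adjusted p = 5.37e-11). Il6st, Lifr, Jak1 and Socs2 differed between TdLN and NdLN by -0.52, 0.23, 0.20 and 0.24 without a call. The call in TdLN against NdLN in this list was Cish, a STAT-induced inhibitor, which fell by 0.84 (SE 0.19, adjusted p = 0.0263; 0.0474 without TdLN 3, 0.0749 without NdLN 2 and 0.174 on the endothelial scale).

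Of 17 tested genes of the integrated stress response and the GADD45 family, 6 rose and 5 fell in Tumor against NdLN libraries (median 0.18; on the endothelial scale 16 were higher), and 6 rose and 5 fell in Tumor against TdLN (median -0.05; on the endothelial scale 12 were higher). Asns, asparagine synthetase and a target of ATF4, was at 258 ± 54.3 CPM in Tumor, 22.5 ± 7.3 in TdLN and 11.2 ± 2.34 in NdLN libraries and rose by 4.53 in Tumor against NdLN (SE 0.25, adjusted p = 6.89e-10). Psat1, of serine synthesis, was at 236 ± 33.4, 32.9 ± 22.7 and 11 ± 1.53 CPM and rose by 4.43 (adjusted p = 8.53e-08), and Chac1, which degrades glutathione, rose by 3.61 (adjusted p = 3.19e-06). Eif2s1, the gene of eIF2α itself, rose by 1.71 (adjusted p = 3.12e-08). Gadd45g, a paralog of Gadd45b, was at 39 ± 7.99 CPM in Tumor, 75.5 ± 13.5 in TdLN and 93.8 ± 19.6 in NdLN libraries and fell by 1.27 in Tumor against NdLN (adjusted p = 1.23e-05). Gadd45a, at -0.38 ± 0.21, was not called. Ppp1r15b, the constitutive counterpart of Ppp1r15a, fell by 0.89 there (adjusted p = 0.00026). In TdLN against NdLN libraries, Psat1 rose by 1.58 (SE 0.34, adjusted p = 0.0191), Asns by 1.00 (SE 0.22, adjusted p = 0.0205) and the interferon-induced kinase gene Eif2ak2 by 0.76 (SE 0.16, adjusted p = 0.0137), and Atf4 fell by 0.46 (SE 0.11, adjusted p = 0.0288). The call of Atf4 held without TdLN 3 (adjusted p = 0.0413) but not without NdLN 2 (0.0739) or on the endothelial scale (0.492). The rise of the other 3 held without TdLN 3 and on the endothelial scale; without NdLN 2 Eif2ak2 held and Asns (adjusted p = 0.0522) and Psat1 (adjusted p = 0.057) did not.

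Of 13 p53 target genes, 3 rose and 6 fell in Tumor against NdLN libraries (median 0.15, of the opposite sign to the majority of calls; on the endothelial scale 10 were higher and 2 lower), and 3 rose and 5 fell in Tumor against TdLN (median -0.05; on the endothelial scale 9 were higher and 1 lower). Plk2, a stress-induced kinase, was at 253 ± 23 CPM in Tumor, 635 ± 68.2 in TdLN and 1032 ± 156 in NdLN libraries. It fell by 2.03 in Tumor against NdLN (adjusted p = 9.77e-10) and by 1.33 in Tumor against TdLN (adjusted p = 9.52e-08), and was the 1 gene of the list called in TdLN against NdLN, where it fell by 0.70 (SE 0.11, adjusted p = 0.004), also without TdLN 3 or NdLN 2 but not on the endothelial scale (adjusted p = 0.097). Sesn1 fell by 2.13 in Tumor against NdLN (adjusted p = 1.18e-09) and Trp53inp1 to 12.5 ± 1.69 CPM in Tumor, against 35.3 ± 5.31 CPM in NdLN libraries (adjusted p = 4.18e-07), whereas the apoptosis effector gene Bax rose by 0.94 (adjusted p = 3.02e-06).

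Of 15 other immediate early effectors, 11 fell and 1 rose in Tumor against NdLN libraries (median -1.88; on the endothelial scale 6 were lower and 4 higher), 9 fell and 1 rose in Tumor against TdLN (median -1.07; on the endothelial scale 3 were lower and 3 higher), and 5 fell in TdLN against NdLN (median -0.78). Sgk1, a kinase of ion transport and survival, was at 185 ± 25.3 CPM in Tumor, 750 ± 37.6 in TdLN and 1445 ± 318 in NdLN libraries. It fell by 2.96 in Tumor against NdLN (adjusted p = 2.33e-10) and by 0.95 in TdLN against NdLN (SE 0.14, adjusted p = 0.0026). Trib1, a pseudokinase, was at 65.8 ± 15.6, 138 ± 27.1 and 323 ± 33.6 CPM in Tumor, TdLN and NdLN libraries, and fell by 1.22 in TdLN against NdLN (SE 0.17, adjusted p = 0.00185). These were the 2 calls of the list that held there without TdLN 3, without NdLN 2 and on the endothelial scale. Rgs16, which turns off G protein signals, fell by 1.26 (adjusted p = 0.0372), Sik1 by 1.03 (adjusted p = 0.0357) and Tiparp by 0.91 (adjusted p = 0.0214) in TdLN against NdLN. Without NdLN 2 none of these was called, at adjusted p = 0.0923, 0.0902 and 0.0596, nor on the endothelial scale, and without TdLN 3 only Tiparp was called. Rgs2, another G protein regulator, was at 13 ± 2.64 CPM in Tumor, 185 ± 21 in TdLN and 193 ± 24.4 in NdLN libraries, so that it fell by 3.83 in Tumor against TdLN (adjusted p = 3.65e-11) and differed by -0.06 ± 0.14 between TdLN and NdLN. The gene that rose in both Tumor comparisons was Phlda1, by 1.01 against NdLN (adjusted p = 0.00522) and 1.79 against TdLN (adjusted p = 6.98e-05).

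Transcripts described as targets of Zfp36 were split in Tumor libraries: of 14, 3 rose and 6 fell against NdLN (median -0.31; on the endothelial scale 7 were higher and 3 lower), and 4 rose and 6 fell against TdLN (median -0.42; on the endothelial scale 7 were higher and 2 lower). Ptgs1, the constitutive cyclooxygenase, was at 4.48 ± 2.13 CPM in Tumor, 119 ± 20.3 in TdLN and 212 ± 51.2 in NdLN libraries and fell by 5.55 in Tumor against NdLN (SE 0.33, adjusted p = 1.55e-09). The chemokine gene Cxcl1 was at 33.3 ± 10.9, 172 ± 49.3 and 276 ± 87.9 CPM and fell by 3.05 (adjusted p = 1.95e-07), Cxcl2 fell by 2.28 (adjusted p = 2.54e-05) and the cytokine gene Lif had a log2 fold change of -2.49 (adjusted p = 1.56e-05). The genes that rose in Tumor against NdLN were Il1b, Ccl3 and Plaur, and the first 2 were scarce, at 4.41 ± 5.66 and 1.03 ± 0.66 CPM in Tumor libraries and under 1 CPM in every lymph node library. Plaur, the urokinase receptor gene, was at 161 ± 31.6 CPM in Tumor, 84.4 ± 7.46 in TdLN and 120 ± 26.6 in NdLN libraries and rose by 0.93 in Tumor against TdLN (adjusted p = 8.35e-05). EdgeR called in TdLN against NdLN 0 of the 14 (median -0.54, all genes -0.006), 4 had an unadjusted p under 0.05, and DESeq2 called 3, all lower.

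**Figure D5:**
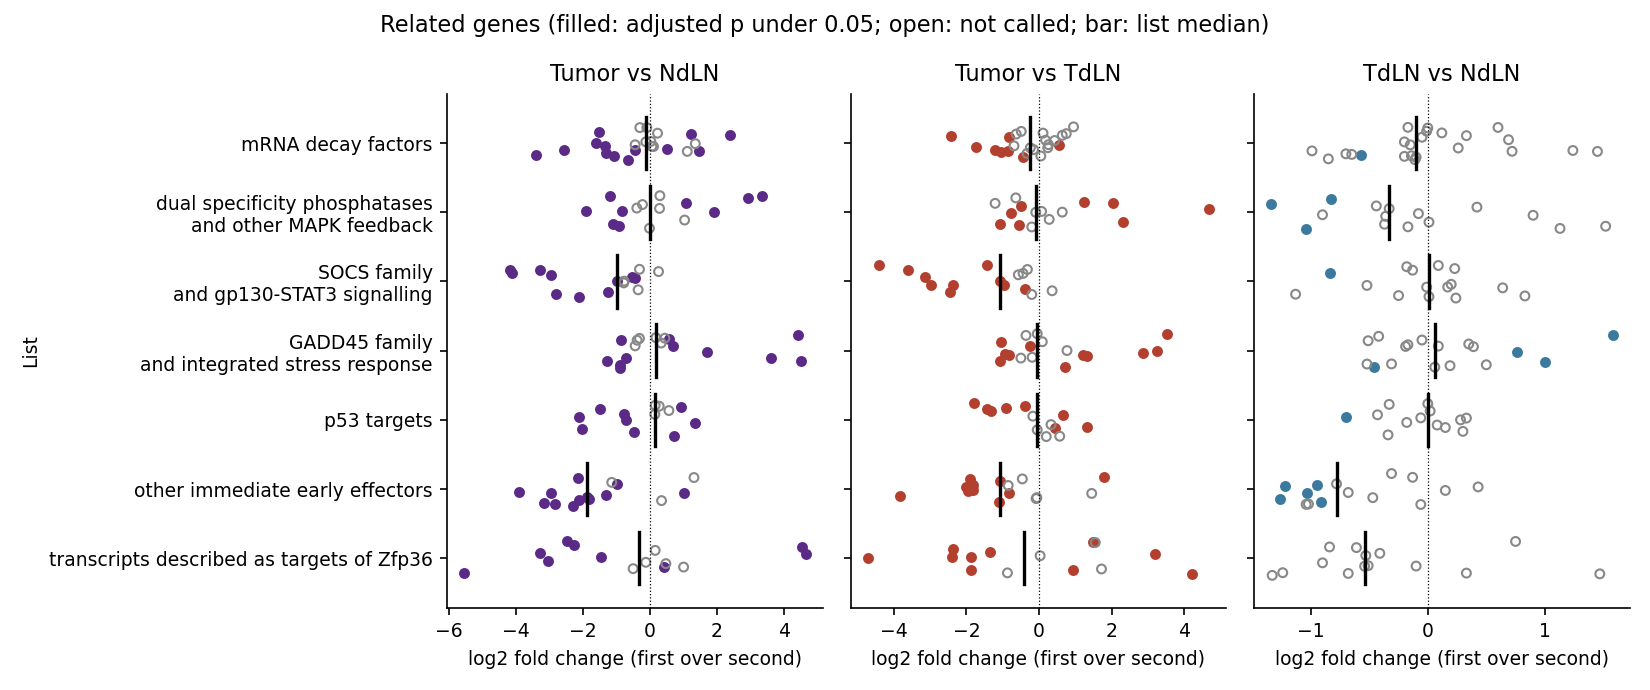
Log2 fold change of each tested gene of the 7 related lists (rows) in Tumor against NdLN, Tumor against TdLN and TdLN against NdLN (panels, each with its own axis range); filled points have an adjusted p under 0.05, open points do not, and black bars are list medians. The list of other immediate early effectors has medians of -1.88, -1.07 and -0.78 in the 3 panels.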

How the data were processed

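RNA of sorted lymphatic endothelial cells was measured in 15 libraries, 5 in each of 3 groups. The authors deposited 1 table of whole-number counts for each gene, which had not been normalized. The submitters' processing notes name STAR 2.4, featureCounts 1.4.6, CASAVA 1.8.2 and genome build GRCm38; the sources used here give neither the annotation release nor the strand setting. Per the labels' protocols, cDNA was amplified from low input (SMARTer Ultra Low and Nextera XT) and single reads were sequenced; these kits do not mark strand. Total counts of 23830337 to 37437282 per library set the counting error, and amplified reads are not independent molecules.

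Gene identifiers were matched to GENCODE M21 (GRCm38), which held 21628 of 21839. The test was that of edgeR 4.0.16, run under R 4.3.3 (TMM factors, filterByExpr, robust glmQLFit and glmQLFTest) in 1 fit of all 15 libraries, with 13887 genes tested and a call at a Benjamini-Hochberg adjusted p under 0.05. Levels are CPM, from counts divided by each library's TMM-scaled total; log2 CPM used a prior count of 2. SE was derived from the quasi-likelihood F statistic. The procedure was tested on simulated data in which a small part of the genes was changed, as many up as down. The Tumor comparisons differ from that setting, so the simulation does not check the scaling there. No library was a duplicate of another in its group (lowest mean chi-square per gene 27.9).

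The 10 genes, the related lists and the marker lists were chosen with earlier results of these data known. Named were the 10 genes, up to 4 called genes with the smallest adjusted p per related list and comparison with any needed to explain a count of 5 or fewer, the 8 genes of most similar profile, and markers that moved with a result, of which part is printed. Gadd45a, Gadd45g and Ppp1r15b, paralogs of listed genes, were added with their values known. Alternatives were RLE and upper quartile factors, scaling to pan-endothelial genes, no filter, a stricter filter (10 CPM in 5 libraries), DESeq2 1.42.0, only the 2 groups compared, the replicate number as a block, and each library left out. Figures used matplotlib 3.10.9.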

Additional observations from a re-analysis of the deposited data

Results flagged for a closer look

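Each of the 10 genes was read in each of the 3 groups, 30 groups of 5 libraries, for a library whose gap to the nearest other exceeded Dixon's 95% critical value of 0.71 of the group's range. For independent, normally distributed values chance alone gives about 1 such library in 20 groups. Here 4 values were found, all in TdLN 3 or NdLN 2, which also stood apart for many other genes. The readings are thus not independent, and their number is not compared with that rate. Dusp1 was at 336 CPM in TdLN 3, against 2199 to 2884 CPM in the other TdLN libraries. Apold1 was at 180 CPM in the same library, against 457 to 511 CPM in the others. Gdf15 was at 286 CPM in NdLN 2, against 125 to 140 CPM in the other NdLN libraries, and Apold1 was at 1981 CPM there, against 1009 to 1266 CPM. No explanation of these values was tested.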

How the results depend on the processing

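Of 540 member fold changes under alternatives, 520 kept their direction and side of the threshold, 17 lost the call and 3 reversed; outside the pan-endothelial scaling, 510 values held no reversal and 11 losses, all of Apold1 in Tumor against TdLN or Socs3 in TdLN against NdLN. The reversals, all in Tumor against TdLN scaled to pan-endothelial genes, were Gdf15 (0.55), Ier3 (0.20) and Apold1 (0.65). That scaling moved the share of called genes that were higher to 89.3%, 88.6% and 87.7%, against 51.1%, 51.5% and 52.9% otherwise, in Tumor against NdLN, Tumor against TdLN and TdLN against NdLN, and left 5 of 9 member calls and 5 of 15 calls of related genes in TdLN against NdLN.

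In TdLN against NdLN, 484 genes and 15 related genes were called by edgeR, DESeq2 called 978 and 23, and a fit of only those groups called 23 related genes. Leaving out each library in turn gave 225 to 564 genes, 5 to 13 related genes and 8 to 9 of the 10 genes there; it gave 8870 to 9156 genes and 70 to 76 related genes in Tumor against NdLN, and 8207 to 8557 genes and 58 to 65 related genes in Tumor against TdLN. The genes called fell to 225 without TdLN 1, 258 without TdLN 2, 315 without TdLN 3, 245 without NdLN 2, 307 without NdLN 3, 277 without NdLN 4 and 319 without NdLN 5. The related genes fell to 8 without TdLN 1 or TdLN 2, 9 without TdLN 5 and 5 without NdLN 2. The cause of these changes was not tested.

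The labels do not say whether replicate numbers pair the libraries, and the data give no clear sign of it. In TdLN against NdLN the deviations of same-numbered libraries correlated at -0.094 to 0.248, and in Tumor against NdLN at -0.0925 to 0.194. In Tumor against TdLN every such correlation was negative, at -0.21 to -0.0392, and the reason was not tested. In no comparison was every pair above 0.1. With the replicate number as a block, 8995, 8381 and 400 genes, 71, 62 and 13 related genes and 10, 9 and 9 of the 10 genes were called in Tumor against NdLN, Tumor against TdLN and TdLN against NdLN; Apold1 in Tumor against TdLN was then at -0.61 without a call.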

Other observations

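Genes that were far below the rest of their group in 1 library differed in base composition. The 374 such genes of TdLN 3 had a median transcript GC content of 52.5%, and the 287 of Tumor 1 had 56%, where the median of the 5384 genes with a value was 50.8%. Dusp1, at 54.9%, and Apold1, at 47.7%, lie on either side of that median. The annotated spans of the 10 genes had a median of 3412 bases, against 24289 bases for all tested protein-coding genes.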
